A study of Homo sapiens with 2 samples.

Results

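The 10 enzymes followed here make or remove active androgens, and their transcripts were measured in LNCaP cells, an established and androgen-responsive human prostate carcinoma line, after KDM4A knockdown. They were chosen by name, with earlier results of these data known. They are the 5-alpha reductases SRD5A1, SRD5A2 and SRD5A3, the 17-beta hydroxysteroid dehydrogenases AKR1C3, HSD17B6 and HSD17B11, and the glucuronosyltransferases UGT2B11, UGT2B15, UGT2B17 and UGT2B28. Of these 10 genes, 7 had a probe set that the array annotation gives to them alone, 11 probe sets in all, among 17689 genes and 34880 such probe sets. SRD5A3, AKR1C3 and UGT2B11 were not analysed here. No probe set named several UGT2B genes, so none had to be set apart. KDM4A is a demethylase of histone H3, and the knockdown culture was infected with lentivirus encoding a short hairpin RNA against it. The control culture was infected with lentivirus from pLKO.1 without an insert, so it carried no hairpin, and both were harvested on day 3. Each group had 1 Affymetrix U133 Plus 2.0 array, so no test, p-value or error between cultures was possible, and precision is limited by this number of arrays.

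Testosterone and dihydrotestosterone are the active androgens of the prostate. The 5-alpha reductases turn testosterone into dihydrotestosterone, which binds the androgen receptor more tightly. The 17-beta dehydrogenases interconvert weak and strong androgens by oxidising or reducing the steroid, and AKR1C3 and HSD17B6 also act at the 3-alpha position. The UGT2B glucuronosyltransferases attach glucuronic acid to androgens in the endoplasmic reticulum, which inactivates them and lets them leave the cell, and prostate cells lower UGT2B15 and UGT2B17 when androgen is present.

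The deposited values of both arrays sum to 0 in every row, so a probe set's control and knockdown values mirror each other around 0 and were read as signals minus the mean of both arrays, on a scale assumed to be log2. A difference is knockdown minus control; signal levels are lost, so whether an enzyme was expressed at all, and which of them was the more abundant, could not be read, nor could the labelled cell type be checked against its markers. Errors given as SD are between probe sets of 1 gene. Pooled over the 8944 genes with at least 2 probe sets this SD was 0.33. In bulk RNA, fewer cells making a transcript and less of it per cell cannot be told apart. KDM4A itself read 0.45 and 0.73 in the control and -0.45 and -0.73 in the knockdown, a difference of -1.18 ± 0.40 (SD, 2 probe sets), so the target of the hairpin was 2.26-fold lower.

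The promoters of SRD5A1, SRD5A2 and UGT2B15 are shown because the reductases, whose differences are set against each other below, and the glucuronosyltransferase differ in base composition. They are RefSeq windows of GRCh38.p14 holding the 250 bases before the annotated start, printed 5′ to 3′ on the strand of the gene. Capitals mark CpG dinucleotides, the GC box GGGCGG and the androgen response half-site AGAACA, both motifs searched on either strand, where a GC box also contains a CpG. The windows lie at chr5:6633190-6633439 on the plus strand, chr2:31580939-31581188 on the minus strand and chr4:68670653-68670902 on the minus strand.
SRD5A1: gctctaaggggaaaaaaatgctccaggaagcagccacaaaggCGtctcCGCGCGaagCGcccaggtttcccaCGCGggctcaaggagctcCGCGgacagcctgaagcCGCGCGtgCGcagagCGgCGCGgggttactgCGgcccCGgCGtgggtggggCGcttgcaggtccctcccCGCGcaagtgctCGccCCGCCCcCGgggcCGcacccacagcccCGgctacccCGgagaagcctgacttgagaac
SRD5A2: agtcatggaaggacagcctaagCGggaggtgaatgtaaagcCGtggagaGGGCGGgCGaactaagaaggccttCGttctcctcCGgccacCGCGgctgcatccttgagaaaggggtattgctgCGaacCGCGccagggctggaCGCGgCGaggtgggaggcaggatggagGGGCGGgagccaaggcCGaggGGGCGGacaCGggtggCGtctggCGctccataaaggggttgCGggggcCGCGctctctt
UGT2B15: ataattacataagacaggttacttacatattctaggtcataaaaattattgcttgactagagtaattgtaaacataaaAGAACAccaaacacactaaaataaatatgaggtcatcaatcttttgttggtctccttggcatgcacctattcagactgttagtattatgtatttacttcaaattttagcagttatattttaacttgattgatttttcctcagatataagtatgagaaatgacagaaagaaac
The SRD5A1 window was 70.8% G and C with 28 CpG and 1 GC box, and the SRD5A2 window 66.4% with 23 CpG and 3 GC boxes. The UGT2B15 window was 28.4% G and C, held no CpG and carried 1 androgen response half-site. Over 35116 windows of this length the median was 58% G and C with 11 CpG. A GC box was present in 42.6% of them, the half-site in 12.4%, and 6.06% had no CpG. The window of UGT2B11, a close relative of UGT2B15, was 31.2% G and C with 1 CpG. That of HSD17B11 was 56% with 16 CpG. A match in these letters is a description and not a binding site. A window was held for 7 of the 10 genes, and none for HSD17B6, UGT2B17 and UGT2B28.

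All 11 member probe sets and thus all 7 genes lay above 0, as did 53.3% of all probe sets naming 1 gene and 53.7% of all genes. The 11 come from 7 genes, and probe sets of a gene share its transcript. Their median difference was 0.42, against 0.023 over all 34880, whose quartiles were -0.17 and 0.21. At least 2-fold higher was 1 of the 11, a probe set of HSD17B6, beside 1.48% of all probe sets; none was 2-fold lower, beside 2.39%, which makes 3.87% in either direction. None was 3-fold apart, beside 1.02%. At least 1.5-fold higher were 5 of the 11, beside 5.50%, and none was 1.5-fold lower, beside 6.37% (11.9% in either direction). These 5 are all the probe sets of HSD17B6 and SRD5A1, so 2 of 7 genes were at least 1.5-fold higher, beside 4.30% of genes, and the other 5 genes lay under 1.5-fold. Because the members were chosen with earlier results of these data known, the counts beside these shares are a description and not a test.

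**Figure D1:**
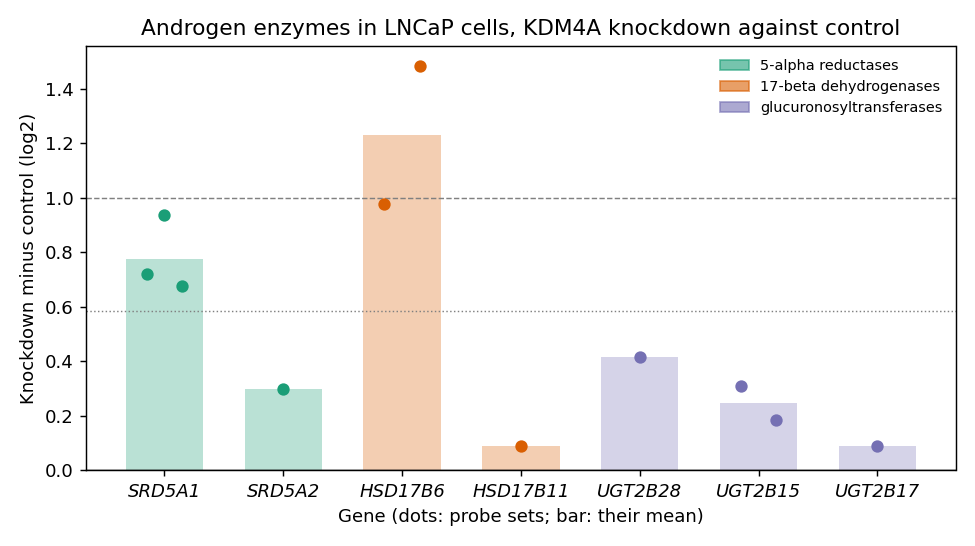
Log2 difference, knockdown minus control, of each member probe set (dots) and the mean over a gene's probe sets (bars), coloured by enzyme class; the dashed line marks 2-fold and the dotted line 1.5-fold. HSD17B6 reaches 1.48 and SRD5A1 0.94, while HSD17B11 and UGT2B17 lie at 0.087 and 0.088.

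Of the 17-beta dehydrogenases, HSD17B6 had the largest difference of all members. HSD17B6 is the enzyme that can oxidise androstanediol, a spent androgen, back to dihydrotestosterone. Probe set 37512_at read -0.74 in the control and 0.74 in the knockdown, a difference of 1.48 or 2.80-fold. Probe set 205700_at read -0.49 and 0.49, a difference of 0.98 or 1.97-fold, just short of 2-fold. Both were therefore higher in the knockdown and both lay in the upper tail of the array, at percentiles 99.6 and 98.4 of all probe sets naming 1 gene. Their mean was 1.23 ± 0.36 (SD, 2 probe sets), or 2.35-fold, at percentile 99.3 of genes. Among genes with 2 probe sets, 2.43% had both at least 1.5-fold higher.

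HSD17B11, a lipid droplet enzyme that oxidises androstanediol to the weak androgen androsterone, read -0.044 in the control and 0.044 in the knockdown on its 1 probe set. The difference of 0.087 lies at percentile 59.6, near the middle of the array. HSD17B6 exceeded HSD17B11 by 1.14, whereas the pooled spread gives this gap an SD of 0.40 for 2 probe sets against 1. The gap was thus 2.84 times the spread expected from probe sets, which leaves out the spread between cultures.

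Of the 5-alpha reductases, SRD5A1 was higher on each of its 3 probe sets. SRD5A1 is the isoenzyme of skin and liver and a form found in prostate carcinoma. Probe set 210959_s_at read -0.47 in the control and 0.47 in the knockdown. Probe set 204675_at read -0.36 and 0.36, and probe set 211056_s_at -0.34 and 0.34. The differences, 0.94, 0.72 and 0.68, lay close together, all past 1.5-fold and none at 2-fold. Their mean was 0.78 ± 0.14 (SD, 3 probe sets), or 1.71-fold, at percentile 97.8 of genes. Among genes with 3 probe sets, 1.69% had all of them at least 1.5-fold higher.

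SRD5A2, the main isoenzyme of the normal prostate, read -0.15 in the control and 0.15 in the knockdown on 1 probe set. Its difference of 0.30, or 1.23-fold, lay at percentile 82.7. SRD5A1 exceeded it by 0.48 with an SD of 0.38 from the pooled spread between probe sets, which leaves out the spread between cultures. These arrays therefore do not set the paralogs clearly apart. SRD5A3-AS1, a separate transcript antisense to SRD5A3, differed by 0.29 on 1 probe set and says nothing of the level of SRD5A3.

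The glucuronosyltransferases had the lowest class median, although single members of the other classes, HSD17B11 and SRD5A2, lay as low. UGT2B28, which conjugates androstanediol and other steroids, read -0.21 in the control and 0.21 in the knockdown, a difference of 0.42 or 1.33-fold. UGT2B15, which conjugates dihydrotestosterone and androstanediol, read -0.15 and 0.15 on probe set 207392_x_at and -0.092 and 0.092 on 216687_x_at. Its differences of 0.31 and 0.18 gave a mean of 0.25 ± 0.088 (SD, 2 probe sets), or 1.19-fold. UGT2B17, which also conjugates testosterone, read -0.044 and 0.044, a difference of 0.088 or 1.06-fold.

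All 4 UGT2B probe sets were slightly higher in the knockdown, between 0.088 and 0.42, and none reached 1.5-fold. They lay at percentiles 59.7 (UGT2B17) to 89.4 (UGT2B28) of all probe sets naming 1 gene. The order was UGT2B28, UGT2B15, UGT2B17, but neighbours in it did not differ beyond the pooled spread between probe sets. That spread leaves out the one between cultures. UGT2B28 exceeded UGT2B15 by 0.17 and UGT2B15 exceeded UGT2B17 by 0.16, each with an SD of 0.40. The ends of the order, UGT2B28 and UGT2B17, were 0.33 apart with an SD of 0.46. The probe sets of UGT2B15 and UGT2B28 end in _x_at, the maker's mark for probes that can match several transcripts, so signal may be shared among these closely related genes. Only the UGT2B17 probe set carries no such mark, and it had the lowest value of the class.

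By class, the median over probe sets was 0.98 for the 17-beta dehydrogenases (3 probe sets, 0.087 to 1.48), 0.70 for the 5-alpha reductases (4 probe sets, 0.30 to 0.94) and 0.25 for the glucuronosyltransferases (4 probe sets, 0.088 to 0.42). The classes overlap, since HSD17B11 lay at the level of UGT2B17 and SRD5A2 at that of UGT2B15. When each gene counts once, the medians are 0.66, 0.54 and 0.25. The higher medians of the dehydrogenases and reductases therefore rest on HSD17B6 and SRD5A1. HSD17B6 exceeded UGT2B15 by 0.98 with an SD of 0.33 from the pooled spread, and SRD5A1 exceeded UGT2B15 by 0.53 with an SD of 0.30. HSD17B6 and SRD5A1 were 0.45 apart, with an SD of 0.30.

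**Figure D2:**
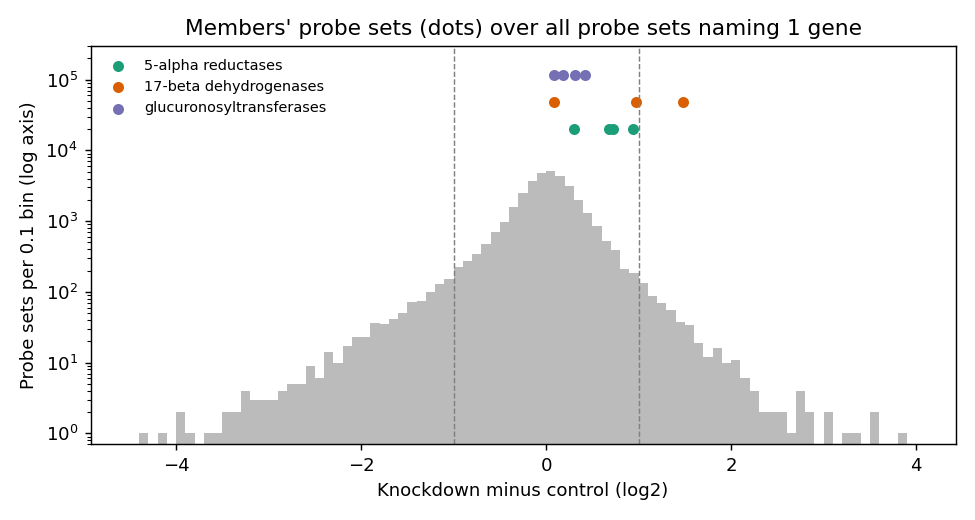
Histogram of log2 differences, knockdown minus control, over 34880 probe sets naming 1 gene (log count axis), with the 11 member probe sets as coloured dots above it, 1 row per class; the height of a row carries no value and dashed lines mark 2-fold. The dots all lie right of 0, and those of the glucuronosyltransferases stay between 0.088 and 0.42, at percentiles 59.7 to 89.4.

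Relatives of the members lay closer to 0 than HSD17B6 and SRD5A1. A list of other 17-beta and 3-alpha hydroxysteroid dehydrogenases, together with related dehydrogenases and reductases such as CBR4 and HSDL2, had 19 measured genes. Of these, 10 lay above 0 and none differed 2-fold (2.60% of all genes did, in either direction). Their median was 0.017, against 0.020 over all genes. The farthest from 0 were CBR4, a carbonyl reductase of the mitochondrion (-0.58 ± 0.39, SD, 3 probe sets), HSD17B7, which also serves cholesterol synthesis (0.47, 1 probe set), and HSDL2, a peroxisomal dehydrogenase (0.36 ± 0.29, SD, 3 probe sets). HSD17B3, the testicular enzyme that makes testosterone, lay at 0.047. AKR1C1 and AKR1C2, which inactivate dihydrotestosterone and are close relatives of AKR1C3, lay at -0.10 ± 0.28 (SD, 5 probe sets) and 0.18 ± 0.13 (SD, 3 probe sets). The AKR1C1 probe sets ran from -0.47 to 0.24, so AKR1C1 has no settled direction. Several probe sets of both genes end in _x_at, so here too signal may be shared among close relatives.

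Of other UGT genes 4 were measured, with a median of -0.057 and none 2-fold apart. UGT8 and UGT3A1 among them are not glucuronosyltransferases, so this median is not one of glucuronidation enzymes. UGT1A1 lay at -0.013 on 1 probe set. UGT1A6, which conjugates small phenols, lay at 0.43, UGT8, which makes galactosylceramide, at -0.26 ± 0.15 (SD, 2 probe sets) and UGT3A1 at -0.10. Kept apart were 4 probe sets that name 6 or 9 genes of the UGT1A locus, whose transcripts share their 3′ exons. They read 0.029, 0.0084, -0.032 and -0.10 and thus stayed near 0. Genes that supply or handle UDP-glucuronate had a median of -0.14 over 6 genes, 4 of them below 0. UGDH, the dehydrogenase that makes this co-substrate, lay at -0.22 on 1 probe set. SLC35B1, a transporter of the endoplasmic reticulum, lay at 0.48, ENTPD5, a nucleotide phosphatase there, at -0.46 ± 0.56 (SD, 4 probe sets), and UXS1, which consumes UDP-glucuronate, at 0.34 ± 0.072 (SD, 2 probe sets).

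A list of steroid synthesis genes, most of them for steps from cholesterol to androstenedione, had a median of 0.095 over 14 measured genes. Of these, 9 lay above 0 and none was 2-fold apart. The list also holds CYP11B1, CYP19A1, H6PD and HSD11B2, which are not such steps, at -0.048, -0.078, -0.25 and 0.0053. FDX1, the ferredoxin that hands electrons to mitochondrial steroid enzymes, was farthest from 0 at 0.60 ± 0.15 (SD, 3 probe sets), or 1.52-fold. TSPO, a protein of the outer mitochondrial membrane, lay at 0.45 and CYP11A1, which cleaves the side chain of cholesterol, at -0.37. CYP17A1 and HSD3B1, which lead to the first androgens, lay at -0.078 and 0.084. Steroid transporters had a median of 0.097 over 11 genes and none 2-fold apart. ABCC4, an exporter of conjugated steroids, lay at 0.50 ± 0.28 (SD, 4 probe sets), and SLCO1B1 and SLCO1B3, uptake carriers of the liver, at 0.30 and 0.21.

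Nuclear receptors, coactivators and pioneer factors that can act on these genes had a median of -0.11 over 9 measured genes, with 2 at least 2-fold lower. Background for genes is 1.44% at least 2-fold lower and 1.16% at least 2-fold higher. NCOA1, a coactivator of steroid receptors, was 2.19-fold lower at -1.13 ± 0.18 (SD), with 4 probe sets from -1.32 to -0.91. FOXA1, a pioneer factor of the prostate, averaged -1.16 ± 1.75 (SD) but its 2 probe sets read -2.39 and 0.079, so it has no settled value. NCOA2, a related coactivator, lay at -0.45 ± 0.32 (SD, 4 probe sets).

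**Figure D3:**
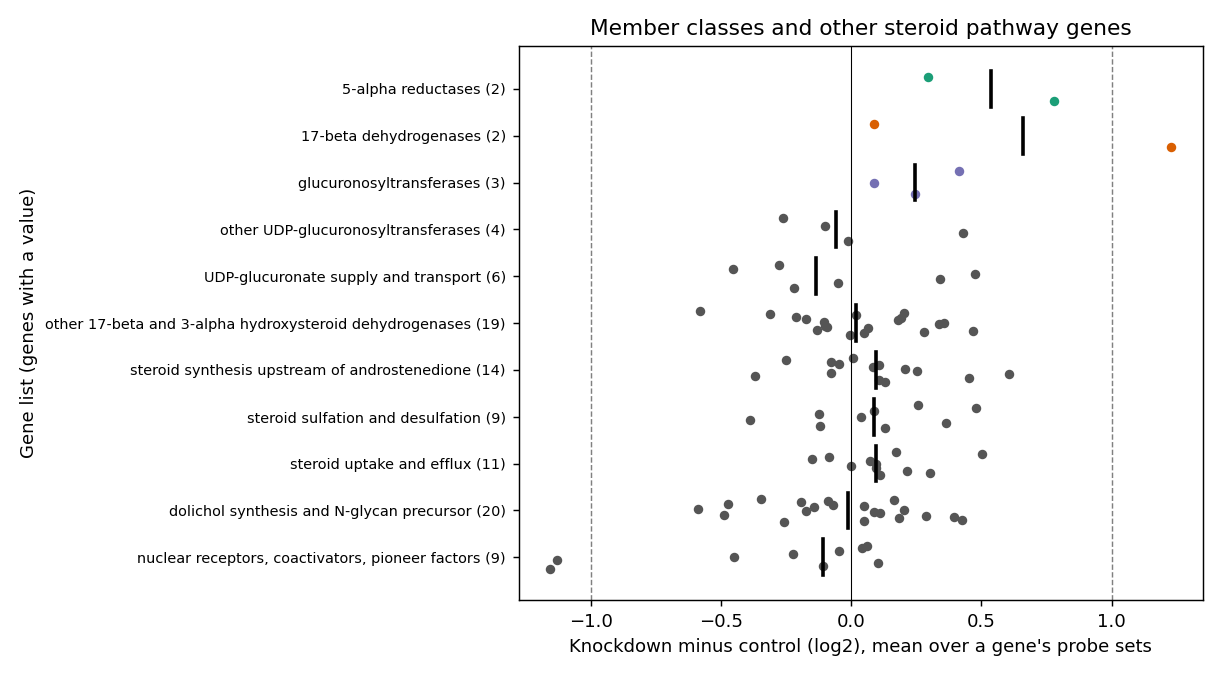
Log2 difference per gene, knockdown minus control, for the 3 member classes (coloured) and 8 lists of other genes (grey). The lists cover steroid metabolism, glucuronidation, dolichol synthesis and regulators. Their names are short labels, and some lists also hold related genes with other functions. Black bars are list medians, dashed lines mark 2-fold, and the number of genes with a value stands beside each list. HSD17B6 is the only gene of these lists past 2-fold on the right, and FOXA1 and NCOA1 lie past it on the left.

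Genes next to the members on the chromosome were read in RefSeq order. PRIM1, a primase subunit, neighbours HSD17B6 on chromosome 12 and lay at -1.49 on 1 probe set, opposite to HSD17B6. On the other side SDR9C7 and RDH16, dehydrogenases of the same superfamily, lay at -0.12 and 0.19. SRD5A1 stood apart from both its neighbours on chromosome 5, NSUN2 at 0.069 and TENT4A at 0.011, each on 1 probe set. XDH, xanthine dehydrogenase, next to SRD5A2 on chromosome 2, lay at 1.13 ± 1.02 (SD, 2 probe sets). TMPRSS11E, a serine protease gene beside UGT2B17 on chromosome 4, lay at 1.04 on 1 probe set, well above the 0.088 of UGT2B17. NUDT9, beside HSD17B11 on chromosome 4, lay at 0.10, close to it, while KLHL8, the nearest measured gene on the other side, lay at -0.72 ± 0.31 (SD, 3 probe sets).

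**Figure D4:**
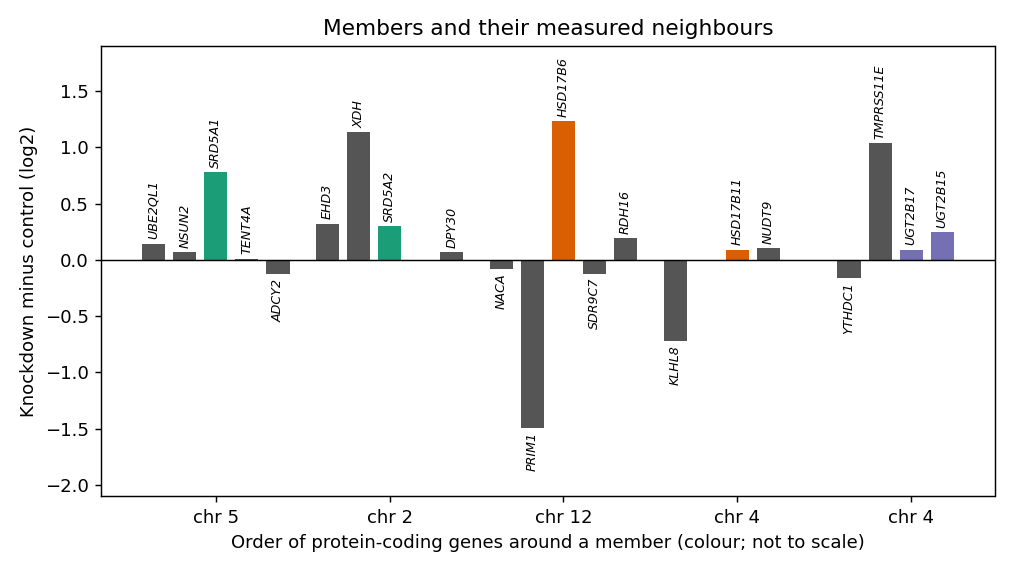
Log2 difference, knockdown minus control, of members (coloured) and up to 2 protein-coding genes on each side with a value (grey), in chromosome order and not to scale; a gap is a gene not analysed here. PRIM1 at -1.49 lies next to HSD17B6 at 1.23, and both neighbours of SRD5A1 lie near 0.

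Marker lists were read for other cell types and for the line itself. Hepatocyte markers, relevant because liver expresses most UGT2B genes, lay above 0 in 4 of 9 cases (median -0.0026, -0.32 to 0.56). Luminal prostate markers, those of the line itself, lay above 0 in 7 of 8 cases (median 0.25, -0.76 to 0.48), beside 53.7% of all genes. The only one past 1.5-fold was TMPRSS2, which was lower (-0.76 ± 0.16, SD, 4 probe sets). Embryonic kidney line markers, for the packaging cells, had a median of 0.052 (2 of 4 above 0, -0.34 to 0.49) and fibroblast and smooth muscle markers 0.024 (6 of 10 above 0, -0.35 to 2.14). Of those 10, 3 were at least 1.5-fold higher, beside 4.30% of genes: ACTA2, a smooth muscle actin past 2-fold (2.14 ± 2.42, SD, 2 probe sets at 0.43 and 3.85), and the collagen genes COL1A1 (0.73 ± 0.76, SD, 4 probe sets) and COL3A1 (0.63 ± 0.68, SD, 3 probe sets). The part of any of these in the members' values was not tested.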

How the data were processed

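Per the submitters' processing notes the arrays were processed with RMA, robust multi-array averaging, and the authors deposited log-scale values, taken here as log2. All 44672 rows sum to 0 over the 2 arrays within 1e-06, so each value was read as a signal minus the mean of both arrays. For the version, log base, centring and any filter, nothing is given in the sources used here; base 2 was assumed, as is usual for RMA, and all folds depend on this. The platform annotation gave 34880 probe sets 1 gene, 1619 several and 8131 none; 42 controls were left out. Entrez identifiers matched to RefSeq symbols changed no name.

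The difference was knockdown minus control, and a gene's value the mean over its probe sets. Calls used a size rule of 2-fold, with 1.5-fold and 3-fold as alternatives; this is not a test. The SD of a gap between 2 genes was the pooled SD between probe sets scaled by the number of probe sets of each gene. The named genes were all members, KDM4A and, in each pathway or regulator list, those at least 2-fold apart and the 3 farthest from 0; other genes and the neighbours were named after their values were seen. Members and lists were chosen with earlier results of these data known. The script was checked on simulated data. Python 3.11.15, numpy 2.4.6 and pandas 2.3.3 were used.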

Additional observations from a re-analysis of the deposited data

How the results depend on the processing

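Each class median, each member gene and the 8 pathway and regulator lists, but not the marker lists, were recomputed in several ways. Probe sets ending in _x_at or _s_at were left out, or the median difference over all probe sets (0.014) was subtracted. Where it applies, means, medians over genes or other size rules were used. A value counted as moved when it shifted by more than the pooled SD between probe sets divided by the root of their number. Counts were held to have moved when they changed more than 1.5-fold, or at all from 0. Without _x_at and _s_at probe sets the 5-alpha reductase median was 0.51 over 2 probe sets and KDM4A -1.46 on 1. That setting left the glucuronosyltransferases with UGT2B17 alone, at 0.088, since those of UGT2B15 and UGT2B28 were removed. With each gene counted once, the 17-beta dehydrogenase median was 0.66. The count of member probe sets past the rule, 1 at 2-fold, was 5 at 1.5-fold and 0 at 3-fold. The other 14 recomputed class medians, counts and KDM4A values did not count as moved. Of 51 values and counts recomputed for single members and lists, 49 did not count as moved. Many of these could not move. The subtracted 0.014 is small beside the limit, and mean and median are equal for genes with 1 or 2 probe sets. A turned direction was looked for only in called values. Among single members and list medians that is HSD17B6 alone, with no probe set ending in _x_at or _s_at, so it could not turn. Adding probe sets that name several genes of a class gave no value, as there were none. No paired analysis was possible because each group has 1 array, and no replicate could be left out. Signal over background is lost by the centring, so dim probe sets could not be recognised.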

Other observations

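Dolichol synthesis, the pathway in which SRD5A3 reduces polyprenol, had a median of -0.011 over 20 measured genes, 10 on either side of 0 and none 2-fold apart. ALG9, a mannosyltransferase, averaged -0.59 ± 1.27 (SD, 2 probe sets, -1.49 and 0.31) and ALG2 -0.49 ± 0.89 (SD, 2 probe sets, -1.12 and 0.14), so neither has a settled direction. Without probe sets ending in _x_at or _s_at, 1 of 18 genes was 2-fold apart, ALG9, which then rests on the probe set at -1.49. ALG14, which anchors a glycosyltransferase, lay at -0.47 ± 0.13 (SD, 2 probe sets). DOLK, the dolichol kinase, lay at 0.42 on 1 probe set.

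A list of steroid sulfation and desulfation genes had a median of 0.087 over 9 measured genes, 6 above 0 and none 2-fold apart. Besides enzymes that add or remove the sulfate, it holds genes that handle the sulfate donor or belong to sulfatase activation. STS, which frees steroids from their sulfates, lay at 0.37 ± 0.15 (SD) with all 4 probe sets between 0.20 and 0.55, and SUMF1, which activates sulfatases, at -0.39 on 1 probe set. SLC35B3, a carrier of the sulfate donor, lay at 0.48 ± 0.41 (SD, 2 probe sets). The list median turned to -0.054 over 5 genes without probe sets ending in _x_at or _s_at.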
